A study of Mus musculus with 6 samples.

Results

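Minor spliceosome protein genes and Stasimon were examined in bulk RNA sequencing (bulk-seq) of the mouse spinal cord in spinal muscular atrophy (SMA). The 9 genes were taken by symbol and are Rnpc3, Zcrb1, Snrnp25, Snrnp35, Snrnp48, Zmat5, Pdcd7, Zrsr2 and Tmem41b, which encodes Stasimon, of 25576 genes listed in the 6 libraries. All 9 were listed above 0 in every library and all 9 passed the minimum mean of 0.5 FPKM used for testing, FPKM being the fragments of a gene scaled by its exon length and by the mapped total of the library. The study compared whole spinal cords of Taiwanese SMA mice with those of heterozygous mice, to find which transcripts differ when SMN, the protein lost in SMA, is scarce. The 3 SMA libraries came from mSmn-/-, hSMN22tg/0 mice and the 3 control libraries from mSmn+/-, hSMN22tg/0 mice, all of the FVB strain at postnatal day 4. Both groups thus carried the human SMN2 transgene, and the controls lacked 1 mouse Smn allele. The methods describe replicate libraries with an n of 1 per group and no label names separate animals, so the p-values may measure only technical spread.

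Most introns are removed by the major spliceosome, while a small class with its own splice signals is removed by the minor spliceosome, which pairs U11 and U12 with U4atac, U6atac and U5 small nuclear RNAs. U11 and U12 bind the intron together as a di-snRNP, held by a set of proteins that the major spliceosome lacks. SMN loads the Sm protein ring onto these small nuclear RNAs other than U6atac. Stasimon, a transmembrane protein of the endoplasmic reticulum in the DedA family, is known for a minor intron whose splicing depends on SMN and for a role in motor circuits. A value per gene does not separate spliced from unspliced transcripts, so splicing itself was not measured.

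The targeted gene was read first. Mouse Smn1 had 10.4, 8.64 and 11.9 FPKM in control replicates 1 to 3 and 8.48, 9.30 and 11.1 FPKM in SMA replicates 1 to 3. The groups overlapped, and the log2 difference (SMA minus control, of FPKM + 1) was -0.09 ± 0.15 (SE, n = 3 per group; exact two-sided permutation p = 0.6), or -0.20 ± 0.12 without control replicate 2, described next, again with overlapping groups. A value over a whole gene cannot show the loss of a part of it, so the values of Smn1 do not check the labels.

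Control replicate 2 stood apart from the other libraries. Its correlation with each of them across genes, on log2(FPKM + 1), was at most 0.849, whereas the other 5 libraries correlated with each other at 0.983 or above. All 10 hepatocyte markers were listed in every library, Alb the most abundant, and summed to 98.5, 31899 and 73.5 FPKM in the controls and 55.6, 120.3 and 64.5 FPKM in SMA. Of 8 erythroid markers 7 were listed, Hbb-bs the most abundant, and they summed to 1861, 18823 and 1179 FPKM in the controls and 1115, 1718 and 1332 FPKM in SMA. Control replicate 2 was thus far above the rest in both lists. The 8 neuron markers, led by Stmn2, summed to 1495, 805 and 1491 FPKM in the controls and 1449, 1581 and 1582.5 FPKM in SMA, lowest in control replicate 2. The main values are therefore also given without this library.

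The markers of the labelled tissue were present. All 6 motor neuron markers were listed in every library, Prph the most abundant, and summed to 58.2, 39.3 and 88.3 FPKM in the controls and 58.1, 65.0 and 60.5 FPKM in SMA, with the groups overlapping. Among 11 marker lists, the endothelial list alone had groups that did not overlap in its summed level. Its 4 markers, led by Cldn5 and none at 0, summed to 40.9, 40.4 and 39.1 FPKM in the controls and 31.5, 24.8 and 24.6 FPKM in SMA. Cldn5 and Pecam1 were lower in every SMA library, while Cdh5 and Flt1 overlapped. Flt1 was highest in SMA replicate 1, with 6.17 FPKM. The 5 fibroblast markers, led by Col1a2, summed to 161, 168 and 145 FPKM in the controls and 176, 74.8 and 33.7 FPKM in SMA, so that SMA replicate 1 lay with the controls. In bulk tissue, fewer cells of a type and less RNA per cell cannot be told apart. The relative depth estimated from the lowest values was 1.16, 1.09 and 1.04 in the controls and 1.00, 1.01 and 1.01 in SMA, as a multiple of SMA replicate 1. This estimate was higher in every control, yet every SMA library listed more genes. The genes listed were 21418, 22161 and 21197 in the controls and 22237, 22201 and 22296 in SMA. The part of these differences in the values of the minor spliceosome genes was not tested.

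The 9 genes spanned a 15.2-fold range of mean FPKM over the 6 libraries. Zcrb1 was the highest with 20.3 ± 3.06 FPKM (SD, n = 6), followed by Tmem41b with 19.4 ± 1.62, and their ranges overlapped, Zcrb1 being above Tmem41b in 4 of 6 libraries. Their order differed by group. In the controls Tmem41b had the higher mean, 19.7 against 17.8 FPKM, and in SMA Zcrb1 did, 22.9 against 19.2 FPKM. Rnpc3 with 16.0 ± 2.20 FPKM and Pdcd7 with 16.0 ± 1.32 FPKM could not be ordered, since Rnpc3 was above Pdcd7 in 2 of 6 libraries. Zrsr2 stood alone in the middle with 9.75 ± 1.88 FPKM, below Pdcd7 and above Zmat5 in 6 of 6 libraries. Zmat5 with 4.39 ± 1.04, Snrnp48 with 4.27 ± 0.647 and Snrnp25 with 4.21 ± 0.805 FPKM had overlapping ranges. Snrnp35 was the lowest with 1.34 ± 0.733 FPKM and lay below Snrnp25 in every library. The 5 highest of these genes were above the median level of all genes tested, 7.53 FPKM.

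**Figure D1:**
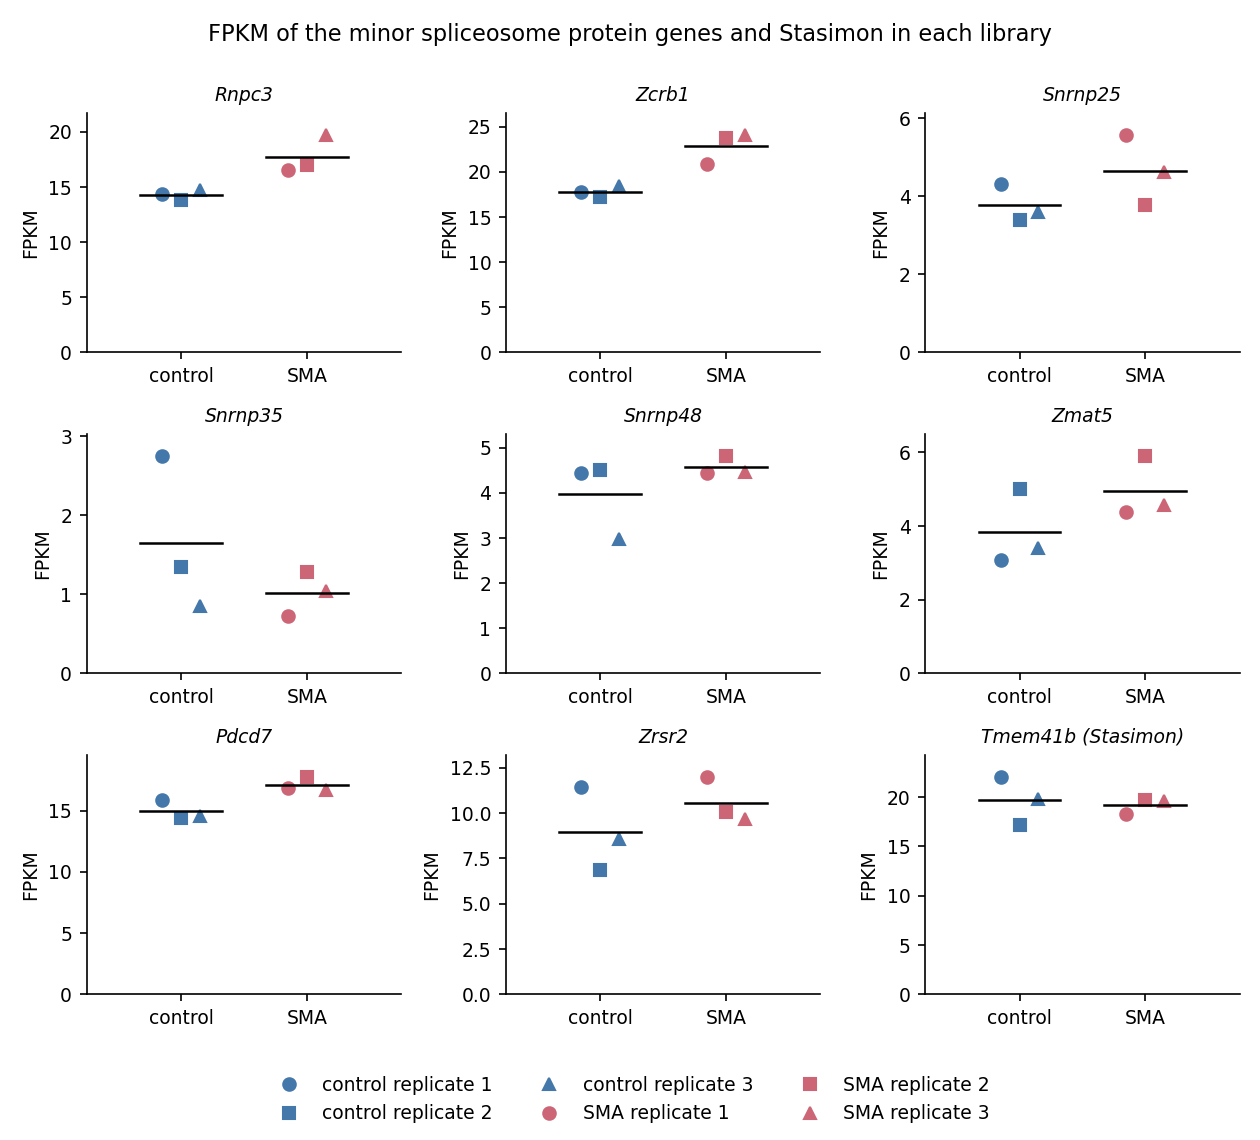
FPKM of each of the 9 genes (vertical axis, starting at 0 and scaled for each gene) in the 3 control and 3 SMA libraries. Points are libraries, marked by replicate, and black lines are group means. For Rnpc3, Zcrb1 and Pdcd7 every SMA point is above every control point, while the points of Tmem41b overlap.

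None of the 9 genes passed the test across all genes. By limma with Benjamini-Hochberg adjustment over 17088 genes, their adjusted p-values lay between 0.683 and 0.932, and 0 of the genes tested (0%) had an adjusted p under 0.05. At an unadjusted p under 0.05, limma placed 2 of the 9, Rnpc3 and Zcrb1, higher in SMA, beside 581 of all genes tested (3.40%), and 0 of the 9 lower, beside 409 (2.39%). Zcrb1 passed this threshold under all 13 alternative settings and Rnpc3 under 9, the other 4 including rescaling to the same total and the omission of SMA replicate 2 or of SMA replicate 3. No member met an unadjusted p under 0.05 by limma together with a fold over 2 on FPKM + 1, which 29 genes (0.170%) met. The study's methods give these thresholds for another test, DESeq on read counts, so this number does not repeat its result. In 3 of the 9, Rnpc3, Zcrb1 and Pdcd7, every SMA library was above every control library, beside 1757 genes tested (10.3%), and in 0 every SMA library was below, beside 1140 (6.67%). The 8 minor spliceosome genes had a median log2 difference of 0.24, against 0.04 over all genes tested, with 7 of 8 above 0 against 9915 of 17088. These 7 kept a positive sign and Snrnp35 a negative sign under each of the 13 alternative settings. The lowest value over the libraries fell in control replicate 2 for 5 of the 8, and for 7673 of all genes tested.

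**Figure D2:**
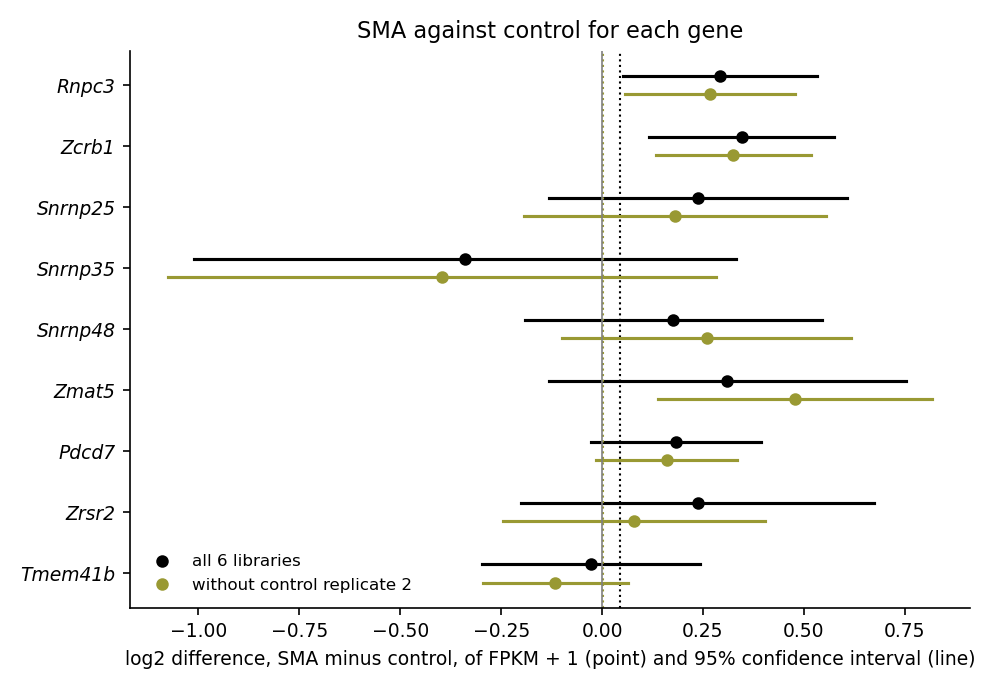
Log2 difference of FPKM + 1, SMA minus control, for each of the 9 genes (points) with the 95% confidence interval of limma (lines), from all 6 libraries in black and without control replicate 2 in olive. Dotted lines mark the median of all genes tested in each fit, 0.04 and 0.00. The intervals of Rnpc3 and Zcrb1 lie above 0 in both fits, and that of Zmat5 only without control replicate 2.

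Rnpc3, Pdcd7 and Snrnp48 form the bridge that joins U11 to U12. Rnpc3, the U11/U12 65K protein, binds U12 RNA and contacts Pdcd7. Rnpc3 had 14.4, 13.8 and 14.7 FPKM in the controls and 16.6, 17.0 and 19.7 FPKM in SMA. All SMA libraries were above all controls, and the controls lay within 1 FPKM of each other. The group means were 14.3 ± 0.470 and 17.8 ± 1.70 FPKM (SD, n = 3 each), 24.2% higher in SMA, with a log2 difference of 0.29 ± 0.10 (SE; exact two-sided permutation p = 0.1, the smallest that 3 libraries against 3 allow). Without control replicate 2 the log2 difference was 0.27 ± 0.09. Rnpc3 (ENSMUSG00000027981, chr3:113605067-113630149, minus strand) shares 1633 bases with Amy1 on the same strand, and the deposited table gives both genes the same span, so that reads may have been divided between them. Amy1, an amylase gene, had 15.9, 36.6 and 15.3 FPKM in the controls and 19.6, 20.1 and 24.3 FPKM in SMA. Without control replicate 2, in which it was highest, Amy1 too was higher in every SMA library, with a log2 difference of 0.42 ± 0.10, and its part in the value of Rnpc3 was not tested.

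Pdcd7, the U11 59K protein, sits between Rnpc3 and Snrnp48. Its values were 15.8, 14.4 and 14.6 FPKM in the controls and 16.8, 17.7 and 16.7 FPKM in SMA. The groups did not overlap, but the gap between control replicate 1 and SMA replicate 3 was smaller than the range of the controls. The means were 14.9 ± 0.773 and 17.1 ± 0.557 FPKM (SD, n = 3 each), with a log2 difference of 0.18 ± 0.09 (SE; exact two-sided permutation p = 0.1) and a 95% interval of -0.03 to 0.39. Pdcd7 (ENSMUSG00000041837, chr9:65346104-65359643, plus strand) overlaps no other annotated gene. Its coefficient of variation over the 6 libraries, 8.27%, was the lowest of the 9 genes.

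Snrnp48, the U11 48K protein, contacts the 5′ splice site of the minor intron. Its values were 4.43, 4.52 and 2.99 FPKM in the controls and 4.44, 4.82 and 4.45 FPKM in SMA. Control replicate 3 was low and the remaining libraries were close together. The log2 difference was 0.18 ± 0.15 (SE; exact two-sided permutation p = 0.4) with all libraries. Without control replicate 3 it was 0.02. Without control replicate 2 it was 0.26 and the groups no longer overlapped, by a margin of 4.44 against 4.43 FPKM.

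Zcrb1, Snrnp25, Snrnp35 and Zmat5 encode the remaining proteins particular to the di-snRNP. Zcrb1, the U11/U12 31K protein, carries an RNA recognition motif and a zinc knuckle. It had 17.7, 17.2 and 18.4 FPKM in the controls and 20.8, 23.8 and 24.1 FPKM in SMA. Every SMA library was above every control library, and the controls were again tightly grouped. The means were 17.8 ± 0.586 and 22.9 ± 1.80 FPKM (SD, n = 3 each), 28.9% higher in SMA, with a log2 difference of 0.35 ± 0.10 (SE; exact two-sided permutation p = 0.1). Its 95% interval of 0.12 to 0.58 was the one farthest above 0 among the 9 genes with all 6 libraries. Without control replicate 2 the log2 difference was 0.32 ± 0.08. Zcrb1 (ENSMUSG00000022635, chr15:93386097-93398334, minus strand) overlaps no annotated gene, and its start lies 16 bases from that of Pphln1, which is transcribed the other way. Pphln1 had 10.9, 9.95 and 10.4 FPKM in the controls and 10.8, 11.6 and 10.9 FPKM in SMA, with overlapping groups and a log2 difference of 0.08 ± 0.09, or 0.05 without control replicate 2.

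Zmat5, the U11/U12 20K zinc finger protein, had 3.09, 5.01 and 3.40 FPKM in the controls and 4.37, 5.90 and 4.57 FPKM in SMA. Control replicate 2 lay among the SMA libraries and the other controls below all of them. The log2 difference was 0.31 ± 0.18 (SE; exact two-sided permutation p = 0.3), and 0.48 ± 0.14 without control replicate 2, where limma gave an adjusted p of 0.366. It was 0.20 without control replicate 1 and 0.20 without SMA replicate 2. Zmat5 overlaps Cabp7, on the opposite strand, by 778 bases, and the deposited table gives both the same span. The libraries kept the strand, but whether the quantification used it is not given in the sources used here. Cabp7 had 14.2, 8.58 and 20.6 FPKM in the controls and 10.7, 15.4 and 13.9 FPKM in SMA, with overlapping groups. Its log2 difference was -0.05 ± 0.30, and -0.35 ± 0.18 without control replicate 2, opposite in sign to that of Zmat5. The part of Cabp7 in the value of Zmat5 was not tested.

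Snrnp25, a ubiquitin-like 25K protein of the di-snRNP, had 4.31, 3.40 and 3.61 FPKM in the controls and 5.57, 3.77 and 4.63 FPKM in SMA. SMA replicate 2 lay below control replicate 1, so the groups overlapped, and the log2 difference was 0.24 ± 0.15 (SE; exact two-sided permutation p = 0.2), or 0.12 without SMA replicate 1. Snrnp35, the 35K protein that resembles the 70K protein of U1, had 2.75, 1.35 and 0.857 FPKM in the controls and 0.728, 1.28 and 1.04 FPKM in SMA. It was the only one of the 8 with a negative log2 difference, -0.34 ± 0.28 (SE; exact two-sided permutation p = 0.4). Control replicate 1 was far above the other libraries, and without it the log2 difference was -0.06, while without control replicate 3 it was -0.57. At these low levels the coefficient of variation of Snrnp35 reached 54.9%, the largest of the 9 genes.

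Zrsr2 recognises the 3′ splice site of minor introns and is related to U2af1 of the major spliceosome. It had 11.4, 6.86 and 8.57 FPKM in the controls and 11.98, 10.0 and 9.65 FPKM in SMA. The groups overlapped through control replicate 1, and control replicate 2 was the lowest library. The log2 difference was 0.24 ± 0.18 (SE; exact two-sided permutation p = 0.4) and was 0.08 ± 0.14 without control replicate 2, 0.15 without SMA replicate 1 and 0.41 without control replicate 1. In the last of these it passed an unadjusted p under 0.05 by limma, beside 1032 of 17115 genes that were higher at that threshold. The mouse has a related intronless copy, Zrsr1, and whether reads were divided between the copies was not tested. Zrsr1 had 6.21, 4.31 and 4.42 FPKM in the controls and 5.14, 5.22 and 5.18 FPKM in SMA, with a log2 difference of 0.06 ± 0.14. This difference turned to -0.02 without control replicate 2 and -0.002 without control replicate 3, and was 0.20 without control replicate 1.

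Stasimon did not separate the groups with all libraries. Tmem41b (ENSMUSG00000047554, chr7:109972187-109986929, minus strand) had 22.0, 17.2 and 19.8 FPKM in the controls and 18.3, 19.7 and 19.6 FPKM in SMA. Control replicates 1 and 2 were the highest and the lowest of the 6 libraries, and all SMA libraries lay between them. The means were 19.7 ± 2.42 and 19.2 ± 0.757 FPKM (SD, n = 3 each), with a log2 difference of -0.03 ± 0.11 (SE; exact two-sided permutation p = 0.8). The 95% interval ran from -0.30 to 0.24. Without control replicate 2 the remaining controls were above all SMA libraries, beside 2302 of 16574 genes (13.9%) lower without overlap in that comparison. The log2 difference was then -0.12 ± 0.08 and the adjusted p of limma was 0.637. Without control replicate 1 the log2 difference was 0.05 and without SMA replicate 1 it was 0.00, both above 0, so its sign changed when either of these libraries was left out.

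The other proteins related to Stasimon differed in their values. Vmp1, an endoplasmic reticulum protein of autophagy with a DedA-type domain, had 25.6, 22.6 and 24.1 FPKM in the controls and 21.9, 21.9 and 20.4 FPKM in SMA. Every SMA library was below every control library, with a log2 difference of -0.16 ± 0.09 (SE; exact two-sided permutation p = 0.1). Tmem64 had 7.72, 14.7 and 7.02 FPKM in the controls and 8.42, 7.41 and 7.02 FPKM in SMA, its log2 difference of -0.26 resting on control replicate 2 and being 0.04 without it. Tmem41a, the closest relative of Stasimon in the list, had a log2 difference of 0.19 ± 0.17 with overlapping groups. It was 0.08 without control replicate 2 and 0.36 without control replicate 3. None of the 3 passed an unadjusted p under 0.05 by limma with all libraries. Vmp1 did without control replicate 2, with a log2 difference of -0.21 ± 0.07 and an adjusted p of 0.405, beside 862 of 16574 genes (5.20%) lower at that threshold.

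Leaving out control replicate 2 raised the number of members without overlap. In 5 of the 9 genes, Rnpc3, Zcrb1, Pdcd7, Snrnp48 and Zmat5, every SMA library was then above both remaining controls, beside 2351 of 16574 genes (14.2%), and Tmem41b was below them. At an unadjusted p under 0.05, limma then placed Rnpc3, Zcrb1 and Zmat5 higher, 3 of 9 beside 874 genes (5.27%). The median log2 difference of the 8 minor spliceosome genes was 0.22 without this library, against 0.00 over all genes tested.

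The promoters of the genes whose groups did not overlap, with that of Stasimon for comparison, are shown to see whether they share short sequences. All 9 genes were matched by symbol to RefSeq promoters of GRCm38.p6, each 250 bases before to 50 bases after the start in that table. For Tmem41b this start is 699 bases inside the gene as annotated in GENCODE M21, and for the other promoters printed it is at that annotated start or 36 bases before it. The following 4 motifs were searched on both strands. CCGGAAG, the core bound by ETS factors, was held by 4 of the 9 promoters, Rnpc3, Zcrb1, Pdcd7 and Tmem41b, and by 8.86% of all 32851 promoters. GGGCGG, the GC box, was held by 6 of the 9 and 35.7% of all, CCAAT by 2 and 37.4%, and TATAAA by 2 and 13.6%. The 9 promoters held between 12 and 43 CG pairs, against a median of 7. CCGGAAG and GGGCGG each hold a CG pair, and promoters with a like number of CG pairs were not compared. Whether the 9 hold these letters more often than such promoters was thus not tested. A match is a description of the letters and not a site. In each promoter, printed 5′ to 3′ on the strand of the gene, capitals mark CCGGAAG or its reverse complement CTTCCGG.
Rnpc3, chr3:113630100-113630399, minus strand: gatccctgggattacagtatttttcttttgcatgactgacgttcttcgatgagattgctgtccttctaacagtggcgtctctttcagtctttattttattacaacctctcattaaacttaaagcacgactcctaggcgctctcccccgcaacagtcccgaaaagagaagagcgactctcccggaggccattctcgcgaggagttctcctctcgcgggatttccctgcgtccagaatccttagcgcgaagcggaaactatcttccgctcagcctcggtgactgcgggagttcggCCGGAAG
Pdcd7, chr9:65345818-65346117, plus strand: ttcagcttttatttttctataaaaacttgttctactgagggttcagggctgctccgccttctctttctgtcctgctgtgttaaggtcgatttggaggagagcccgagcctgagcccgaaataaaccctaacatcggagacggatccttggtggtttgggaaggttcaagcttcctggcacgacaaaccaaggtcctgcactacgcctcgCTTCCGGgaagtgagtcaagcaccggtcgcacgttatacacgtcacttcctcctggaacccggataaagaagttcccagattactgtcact
Zcrb1, chr15:93398285-93398584, minus strand: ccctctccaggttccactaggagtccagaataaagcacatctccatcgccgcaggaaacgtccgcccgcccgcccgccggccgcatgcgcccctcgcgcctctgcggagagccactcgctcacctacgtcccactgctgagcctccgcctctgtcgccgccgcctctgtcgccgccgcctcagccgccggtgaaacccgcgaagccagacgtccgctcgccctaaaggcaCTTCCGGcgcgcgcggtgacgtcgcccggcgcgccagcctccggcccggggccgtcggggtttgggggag
Tmem41b, chr7:109986181-109986480, minus strand: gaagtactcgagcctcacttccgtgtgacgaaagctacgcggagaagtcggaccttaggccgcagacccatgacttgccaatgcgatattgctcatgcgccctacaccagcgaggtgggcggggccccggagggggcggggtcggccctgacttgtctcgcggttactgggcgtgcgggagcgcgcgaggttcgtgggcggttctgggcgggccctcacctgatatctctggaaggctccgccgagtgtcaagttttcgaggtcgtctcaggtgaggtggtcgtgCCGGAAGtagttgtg

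Ratios to a major spliceosome counterpart were taken within each library, since a ratio does not depend on how a library was scaled. Rnpc3 was compared with Snrpa, the U1 protein with similar RNA recognition motifs, and stood at 56.7%, 60.5% and 70.0% of its FPKM in the controls and 74.3%, 65.5% and 92.6% in SMA. SMA replicate 2 lay below control replicate 3, so the groups overlapped, with a log2 ratio 0.30 higher in SMA (exact two-sided permutation p = 0.2, 0.45 after Benjamini-Hochberg adjustment over the 3 pairs), and 0.17 higher without SMA replicate 3. Snrnp35 stood at 16.6%, 8.81% and 4.61% of Snrnp70 in the controls and 3.57%, 6.90% and 5.07% in SMA. Control replicate 1 was the highest and SMA replicate 1 the lowest, and the log2 difference of -0.81 was within the spread of the controls, whose SD was 0.92 (exact two-sided permutation p = 0.3, adjusted 0.45). It was -0.35 without control replicate 1 and -1.27 without control replicate 3. Zrsr2 stood at 88.4%, 42.4% and 91.0% of U2af1 in the controls and 79.1%, 69.3% and 75.8% in SMA. The difference of 0.10 (exact two-sided permutation p = 1, adjusted 1) turned to -0.27 without control replicate 2, where both remaining controls were above all SMA libraries.

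**Figure D3:**
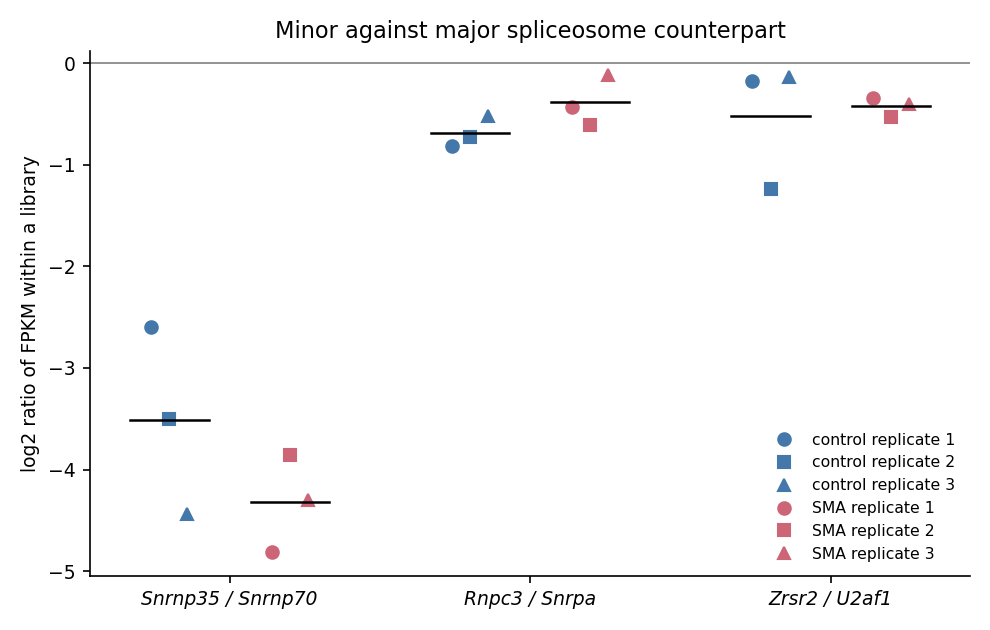
Log2 ratio of FPKM within each library (vertical axis) for 3 pairs of a minor and a major spliceosome gene. Points are libraries, marked by replicate, and black lines are group means. The groups overlap in all 3 pairs, and Snrnp35 lies far below Snrnp70 in every library.

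Of the other minor spliceosome factors, 7 were measured, Cenatac being counted under its older symbol Ccdc84, and their median log2 difference was 0.10. It was 0.08 without control replicate 2 and 0.18 without control replicate 1, where Ccdc84 was the middle gene. Scnm1, a factor of minor intron splicing, had 5.09, 5.74 and 6.73 FPKM in the controls and 4.32, 3.94 and 4.88 FPKM in SMA. It was lower in every SMA library, with a log2 difference of -0.35 ± 0.13 (SE; exact two-sided permutation p = 0.1), and was the only one of the 7 with an unadjusted p under 0.05 by limma, its adjusted p being 0.683, beside 2.39% of all genes tested that were lower at that threshold. Cript, the highest of these genes, had 28.3, 23.2 and 27.3 FPKM in the controls and 34.5, 30.3 and 29.3 FPKM in SMA, without overlap and with a log2 difference of 0.25 ± 0.12, or 0.16 without control replicate 2. Of the 7, 1 was thus lower and 1 higher without overlap, beside 6.67% and 10.3% of all genes tested. Armc7 and Ccdc84 had log2 differences of 0.30 and 0.27 with overlapping groups, or 0.18 and 0.34 without control replicate 2. That of Ccdc84 rested on SMA replicate 1, with 3.86 FPKM against at most 2.25 in the other libraries, and was 0.04 without it. The small nuclear RNA genes Rnu11, Rnu12, Rnu4atac and Rnu6atac were not listed in any library, so the RNA components themselves were not analysed here.

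Proteins that the minor spliceosome shares with the major one gave smaller medians. The 7 SF3b proteins, which hold the branch site in both U2 and the di-snRNP, had a median log2 difference of 0.05, with 2 of 7 higher without overlap, beside 10.3% of all genes tested, and 0 higher at an unadjusted p under 0.05, beside 3.40%. The median was 0.14 without control replicate 2, and 1 of 7, Sf3b2, passed that threshold by limma, its adjusted p being 0.477, beside 5.27% of the genes tested without that library. Sf3b1, the highest of them, had 72.9, 63.8 and 65.5 FPKM in the controls and 80.3, 73.1 and 75.0 FPKM in SMA. Sf3b2 with 0.21 and Sf3b1 with 0.18 were the pair without overlap, while Sf3b4 with 0.21 overlapped and had 0.12 without control replicate 3. The 17 genes of the tri-snRNP list, which includes assembly factors, had a median of 0.08, or 0.05 without control replicate 2, with 2 of 17 higher without overlap, a share near the 10.3% of all genes tested. Snrnp200, the helicase that unwinds the U4 and U6 pairing, had 33.8, 29.3 and 30.3 FPKM in the controls and 38.3, 37.4 and 36.1 FPKM in SMA, with a log2 difference of 0.25 ± 0.09 (SE; exact two-sided permutation p = 0.1). Prpf8, the highest of the list, had a log2 difference of 0.12 ± 0.09, or 0.08 without control replicate 2, also without overlap. At an unadjusted p under 0.05, limma placed Snrnp200 alone higher with all libraries, 1 of 17 beside 3.40% of all genes tested, and 0 lower. Leaving out control replicate 2, 1 of 17 was higher, again Snrnp200, and 1 lower, Snrnp27, beside 5.27% and 5.20% of the genes tested without that library. Txnl4a with 0.29 had overlapping groups, and 0.11 without control replicate 2. Snrnp27, a tri-snRNP protein, had 16.0, 10.1 and 15.4 FPKM in the controls and 9.40, 10.2 and 10.4 FPKM in SMA, so the groups overlapped through control replicate 2 alone. Its log2 difference was -0.40 ± 0.18 with all libraries and -0.60 ± 0.08 without that library, where limma gave an adjusted p of 0.176.

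The 10 proteins particular to U1, U2 and U2AF of the major spliceosome had a median log2 difference of 0.08 with all libraries and 0.01 without control replicate 2. Without control replicate 1 the log2 difference was higher for every gene of the list except Snrnp70. That of Snrpb2, for example, was 0.25, against 0.06 with all libraries. Of the 10, 9 were above 0, beside 9915 of 17088 genes tested, and 1 was higher without overlap, a share near the 10.3% of all genes. That gene was Snrpa1, a U2 protein, with 15.0, 12.4 and 12.2 FPKM in the controls and 15.8, 17.3 and 17.6 FPKM in SMA and a log2 difference of 0.34 ± 0.11 (SE; exact two-sided permutation p = 0.1). U2af2, the highest of the list, had a log2 difference of -0.05 ± 0.09. Snrnp70 with 0.23 ± 0.11 and U2af1 with 0.15 ± 0.19 had overlapping groups, and Snrpa had 0.01 ± 0.12. At an unadjusted p under 0.05, limma placed Snrpa1 alone higher, 1 of 10 beside 3.40% of all genes tested, and 0 lower. Leaving out control replicate 2, 2 of 10 were higher, Snrpa1 and U2af1, the latter with a log2 difference of 0.33 ± 0.14 and overlapping groups, beside 5.27%. Without control replicate 3 the log2 difference of U2af1 was -0.04. The difference between the median of these genes and that of the minor spliceosome genes was not tested.

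**Figure D4:**
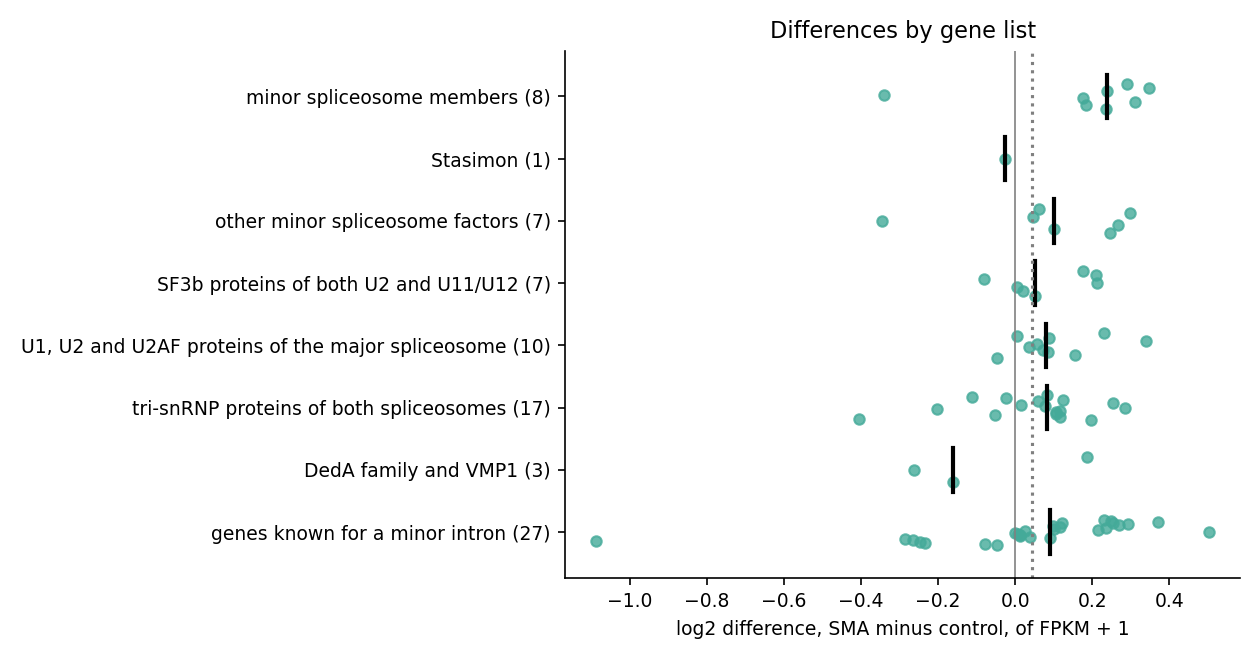
Log2 difference of FPKM + 1, SMA minus control, of each gene (points, horizontal axis) by gene list, with the number of genes in brackets. Black bars are list medians and the dotted line is the median of all genes tested, 0.04. The vertical position within a list has no meaning. The bar of the 8 minor spliceosome genes is at 0.24 and those of the shared and major spliceosome lists lie between 0.05 and 0.08.

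Genes known for a minor intron were read as the substrates of this machinery. Of 27 such genes, 20 had a log2 difference above 0, beside 9915 of 17088 genes tested (58.0%). Their median was 0.09 with all libraries and 0.01 without control replicate 2, against 0.04 and 0.00 over all genes tested. At an unadjusted p under 0.05, limma placed 1, Mapk10, higher and 1, E2f3, lower. Groups did not overlap in 3 higher, Mapk10, Scn3a and Scn9a, and in 2 lower, E2f2 and E2f3, the last named after its values were seen. These counts are near the shares of all genes tested, which were 3.40% higher and 2.39% lower at that threshold and 10.3% higher and 6.67% lower without overlap. Mapk10, the neuronal JNK kinase, had 55.5, 40.5 and 55.0 FPKM in the controls and 72.3, 69.8 and 71.1 FPKM in SMA, with a log2 difference of 0.50 ± 0.14 (SE; exact two-sided permutation p = 0.1). It was well above all controls in every SMA library, and without control replicate 2 the log2 difference was 0.36. Scn3a, a sodium channel gene, had 34.8, 21.0 and 31.9 FPKM in the controls and 35.2, 38.7 and 38.0 FPKM in SMA, without overlap and with a log2 difference of 0.37 ± 0.19, or 0.16 ± 0.07 without control replicate 2. Scn2a, the highest of the list, had 114, 62.4 and 107 FPKM in the controls and 104, 111 and 112 FPKM in SMA, its low value lying in control replicate 2 as for the neuron markers. E2f2, a cell cycle factor, had 1.36, 11.6 and 1.14 FPKM in the controls and 1.06, 1.03 and 0.592 FPKM in SMA, so that its log2 difference of -1.09 ± 0.66 rested on control replicate 2 and was -0.26 without it.

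The letters that the minor spliceosome reads are shown for introns that a transcript sequence holds in full. Of 224289 introns of coding transcripts in GENCODE M21 (GRCm38), 12224 (5.45%) lie inside an exon of another transcript of the same gene and could be read. Of these, 50 (0.409%) begin with ATATCCTT or GTATCCTT, and 19 (0.155%) also hold CCTTAAC or CCTTGAC, a minor branch site, within their last 40 bases on the strand of the gene. Among the 27 genes, 10 had a readable intron and 3, E2f6, Scn9a and Mapk8, had one with such a start, of which Mapk8 lacked the branch letters. The starts and ends of the AT to AC introns of E2f6 (chr12:16820385-16822092, plus strand) and Scn9a (chr2:66565868-66566170, minus strand) follow, with the start and branch letters in capitals.
E2f6 intron start: ATATCCTTccatcagtacct
E2f6 intron end: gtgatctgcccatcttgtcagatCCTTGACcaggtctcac
Scn9a intron start: ATATCCTTtccaaagcttac
Scn9a intron end: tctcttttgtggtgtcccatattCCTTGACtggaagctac

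E2f6, a repressor of the E2F family, had 6.52, 6.82 and 7.73 FPKM in the controls and 6.88, 6.43 and 6.94 FPKM in SMA, with a log2 difference of -0.05 ± 0.10 and overlapping groups. Without control replicate 3 this difference turned to 0.01. Scn9a, a sodium channel gene of sensory neurons, had 7.45, 6.16 and 8.01 FPKM in the controls and 8.43, 9.14 and 8.68 FPKM in SMA, without overlap and with a log2 difference of 0.25 ± 0.12 (SE; exact two-sided permutation p = 0.1), or 0.16 ± 0.09 without control replicate 2. Both were named for these sequences after their values had been seen. Of the 9 coding introns of Tmem41b, 2 could be read and neither began with these letters. The other 7 were not analysed here.

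The genes most like these in pattern were taken over the 6 libraries by Pearson r of log2(FPKM + 1) among the 15417 genes whose mean reached 1 FPKM, as a description. Most like Tmem41b were Prpf6 (r = 0.993), Gm7664 (0.992), Abhd6 (0.991), Marcks (0.990) and Grk6 (0.989), and 325 genes had an r over 0.9. Prpf6, a tri-snRNP protein, had 19.1, 14.5 and 16.7 FPKM in the controls and 15.8, 16.6 and 16.8 FPKM in SMA, high in control replicate 1 and low in control replicate 2 as Tmem41b was. Most like the mean of the 8 minor spliceosome genes were Vps26a (r = 0.996), 1110032A03Rik (0.991), RP23-119H17.2 (0.988), Tctex1d2 (0.986) and 1700019G17Rik (0.985), and 192 genes had an r over 0.9. Vps26a, a retromer subunit of endosomal sorting, had 12.1, 11.2 and 10.8 FPKM in the controls and 12.2, 12.7 and 12.4 FPKM in SMA. Among the members, Rnpc3 and Zcrb1 were the most alike pair (r = 0.942), and Tmem41b had an r of 0.06 with Rnpc3 and 0.05 with Zcrb1. All r share the 6 libraries, and control replicate 2 stands apart in them.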

How the data were processed

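Spinal cord RNA depleted of ribosomal RNA was sequenced from strand-specific libraries. The authors aligned reads to mm10 with HISAT2 and deposited FPKM per gene from Cufflinks, versions not given in the sources used here. Genes absent from a library were set to 0. Here, log2(FPKM + 1) was compared for genes averaging 0.5 FPKM or more by limma 3.58.1 in R 4.3.3 (lmFit, eBayes with trend, no covariate, two-sided, Benjamini-Hochberg over all genes), and exact permutation tests used scipy 1.17.1. Fold changes on this scale understate the change of low genes. Groups came from the labels. FPKM holds no counts, so depth in reads is unknown and no counting interval is given. The procedure was tested on simulated data with independent noise, whose spread was taken without control replicate 2. The simulation thus held no outlying library and does not show how the test behaves with one. The members and lists were chosen with earlier results of these data known. Named genes were the members, Smn1, the counterparts of the ratios, in each other list the gene with the highest mean and up to 3 with the largest log2 difference, and the 5 genes most like Tmem41b and the 8 minor spliceosome genes. Outside these rules, Zrsr1 was named as the copy of Zrsr2, and Amy1, Cabp7 and Pphln1 as genome neighbours of members. Listed symbols absent from the tables were matched through GENCODE M21 identifiers (Scn2a and Snu13). Alternatives were another pseudocount, other filters and scalings, a block and the omission of each library.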

Additional observations from a re-analysis of the deposited data

How the results depend on the processing

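The values were recomputed under 13 alternatives: a pseudocount of 0.1, no filter, a minimum mean of 1 FPKM, rescaling to the same total, median ratio scaling, quantile normalization, the replicate number as a block, and the omission of each library in turn. No member had an adjusted p under 0.05 by limma under any of them, the lowest being 0.313 without control replicate 2. The log2 differences of the 8 minor spliceosome genes kept their signs in all 13. Their median ranged from 0.19 to 0.28 under the settings that kept all libraries and from 0.19 to 0.27 when 1 was left out. That of Tmem41b ranged from -0.12 to 0.05 when 1 library was left out, turning positive without control replicate 1 (0.054) and without SMA replicate 1 (0.00). Over the same omissions the ratio of Rnpc3 to Snrpa ranged from 0.17 to 0.42 and that of Snrnp35 to Snrnp70 from -1.27 to -0.35. The ratio of Zrsr2 to U2af1 ranged from -0.27 to 0.29 when 1 library was left out, and was negative without control replicate 2. The cause was not tested. Members without overlap, 3 with all libraries, ranged from 3 to 6, counting both directions. Those higher were 3 with all libraries, beside 10.3% of all genes tested, and 5 without control replicate 2, beside 14.2%. Without control replicate 1 they were also 5, and without SMA replicate 2 they were 4. A member was lower in 2 settings, Tmem41b without control replicate 2, beside 13.9%, and Snrnp35 without control replicate 3. Shares of all genes are not given for the other omissions. Fewer libraries make non-overlap easier for every gene, so the counts without such a share are not read as a result about the members. Members at an unadjusted p under 0.05, 2 with all libraries, were Zcrb1 alone after rescaling to the same total (1) and with the block (1), 3 with Pdcd7 added when no filter was used, and ranged from 1 to 3 over the omissions. Genes at an unadjusted p under 0.05 numbered 990 with all libraries, 659 with the block and 339 to 1752 over the omissions. Those with a fold over 2 as well numbered 29, and were 189 with the pseudocount of 0.1, 159 after rescaling to the same total, 48 with the block and 16 to 144 over the omissions. Genes at an adjusted p under 0.05 by limma ranged from 0 to 2, the 2 being the small RNA genes Snora74a and Rpph1 without control replicate 2, named after their values were seen. With median ratio scaling 528 genes were higher and 565 lower at an unadjusted p under 0.05, against 581 and 409. Deviations of libraries with the same replicate number correlated at -0.04, 0.02 and 0.08, and not every library correlated best with its own number. The control deviations were taken from a mean that includes control replicate 2, so these values cannot exclude a pairing. With 3 libraries a group, no exact p under 0.1 was possible.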
